A study of Mus musculus with 6 samples.

Results

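The circadian clock genes were followed in bulk RNA-Seq of pulmonary group 2 innate lymphoid cells (ILC2s), lymphocytes that release type 2 cytokines when the alarmin IL-33 reaches the lung. The 10 genes were Npas2, Clock, Arntl (which encodes BMAL1), Per1, Per2, Per3, Cry1, Cry2, Nr1d1 and Nr1d2. They were chosen by name with the genotype comparison of these same libraries known, so their differences are given as a description, and the number past the threshold used for all genes is given for orientation and is no test of them. All 10 were among the 15212 genes listed and among the 13166 genes with enough reads to be tested.

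The cells came from Vsir-/- mice, which lack the immune checkpoint VISTA in every cell type and carry the Vsirtm1Lex allele, and from WT BALB/cByJ mice. According to the paper, the WT mice came from The Jackson Laboratory and the mutants from another laboratory, under a stock name of other strains. Strain differences left between them cannot be told apart from the genotype. Mice of both genotypes were on the BALB/c background, sex-matched, aged 5 to 8 weeks, and received 0.5 µg of rmIL-33 through the nose on 3 consecutive days before lung ILC2s were sorted on day 4 as live CD45+ lineage-negative ST2+ CD127+ cells. Each genotype had 3 libraries, made from 10 pg of RNA each. The labels speak of freshly isolated and of cultured ILC2s, and give the day of isolation but no hour for any library. If the hour differed between the genotypes, its part in the differences below cannot be told apart from that of the genotype. Whether each library is a mouse of its own is not stated, and the p-values given here therefore speak for the variation among these libraries, which may be technical.

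The libraries held 15680892 to 29197999 assigned reads, the largest being WT replicate 2. Vsir had 0, 2 and 0 reads in the Vsir-/- libraries and 109, 185 and 126 reads in the WT libraries. All 9 ILC2 markers looked for were listed, and summed to 22729 to 25103 CPM (read counts divided by library size, after TMM scaling for library composition) in Vsir-/- ILC2s and 14274 to 14791 CPM in WT ILC2s. That sum was carried mostly by Il5 and Il2ra: of the 9 markers, Il5, Il2ra and Il7r were higher in Vsir-/- ILC2s, Gata3, Icos, Thy1 and Klrg1 were lower, and Il1rl1 and Ptprc did not pass (edgeR, adjusted p of 0.05). Of 36 markers of other cell types, 19 were listed and 12 tested, 2 of them higher and 6 lower in Vsir-/- ILC2s. Mcpt8 and Pecam1 were higher, and Cd3e, Cd68, Cpa3, Epcam, Hba-a1 and Xcr1 lower. These 8 of 12 stand beside 38.9% of all tested genes that passed. Together these markers summed to 104 to 111 CPM in Vsir-/- ILC2s and 143 to 161 CPM in WT ILC2s, and no listed marker was at 0 in all libraries. Their part in the results below was not tested. In sorted cells in bulk, fewer cells that express a gene and less RNA per cell cannot be told apart.

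The mammalian clock is a feedback loop of transcription. BMAL1 pairs with CLOCK or with its close relative NPAS2 and switches on genes that carry an E-box, among them the Per and Cry genes, whose proteins then shut down the same activators. A second loop is run by the REV-ERB repressors, encoded by Nr1d1 and Nr1d2, and the ROR activators. These compete for the same type of element in the Arntl promoter. D-box elements answer to the activators DBP, TEF and HLF and to their repressor NFIL3.

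These elements are shown first, because the loop acts on its genes through elements of this kind. They were searched only near transcription starts, and sites elsewhere were not looked for. The window searched ran from 250 bases before to 50 bases after each RefSeq transcription start (GRCm38.p6, a C57BL/6J genome, whereas these mice were BALB/c), and 9 of the 10 genes had an entry, Per2 being the one without. Motifs were searched on both strands as CACGTG (E-box), AACGTG (E'-box), TTATGTAA or TTACGTAA (D-box) and TAGGTCA (the motif bound by ROR and REV-ERB proteins). Over all 32851 windows of this length the E-box was present in 7.15%, the E'-box in 4.68%, the D-box in 1.06% and the ROR/REV-ERB motif in 2.61%. The stretches around the matches are written 5′ to 3′ on the strand of the gene, with the motif in capitals, for 6 clock genes and for Ciart and Nfil3, which are described further on:
Per3, chr4:151044804-151044882, minus strand, 2 D-boxes: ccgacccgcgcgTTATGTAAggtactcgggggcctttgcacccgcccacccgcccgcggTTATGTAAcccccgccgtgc
Per1, chr11:69098771-69098800, plus strand, E-box: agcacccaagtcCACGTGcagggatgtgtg
Cry1, chr10:85185097-85185145, minus strand, E'-box and E-box: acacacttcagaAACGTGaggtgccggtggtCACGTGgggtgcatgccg
Cry2, chr2:92434218-92434247, minus strand, E'-box: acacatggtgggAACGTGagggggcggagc
Nr1d1, chr11:98775388-98775417, minus strand, E'-box: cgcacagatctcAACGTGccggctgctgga
Arntl, chr7:113207530-113207558, plus strand, ROR/REV-ERB motif: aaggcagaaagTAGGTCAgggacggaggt
Ciart, chr3:95882255-95882356, minus strand, 3 E-boxes: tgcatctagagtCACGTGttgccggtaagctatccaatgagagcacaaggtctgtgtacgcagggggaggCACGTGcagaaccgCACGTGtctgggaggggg
Nfil3, chr13:52981040-52981071, minus strand, ROR/REV-ERB motif on the opposite strand: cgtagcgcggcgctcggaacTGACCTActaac
The windows of Npas2, Clock and Nr1d2 held none of these letters. A match is a description of the sequence and not a bound site.

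Npas2 and Per3 were the clock genes that differed most between the genotypes, and both were lower in Vsir-/- ILC2s. Nr1d1 and Arntl were lower by less, and the other 6 genes had libraries that overlapped between the genotypes. By the edgeR test over all genes, 4 of the 10 clock genes passed an adjusted p of 0.05, all lower in Vsir-/- ILC2s, where 38.9% of all tested genes passed (20.1% lower and 18.9% higher). The same 4 genes were those whose libraries did not overlap, which 49.4% of all tested genes shared. The genes were selected on this comparison, so nothing is read from these counts. The median log2 fold change, Vsir-/- over WT, was -0.18 over the 10 clock genes and -0.01 over all tested genes, and the median size of the log2 fold change without its sign was 0.37 and 0.32.

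**Figure D1:**
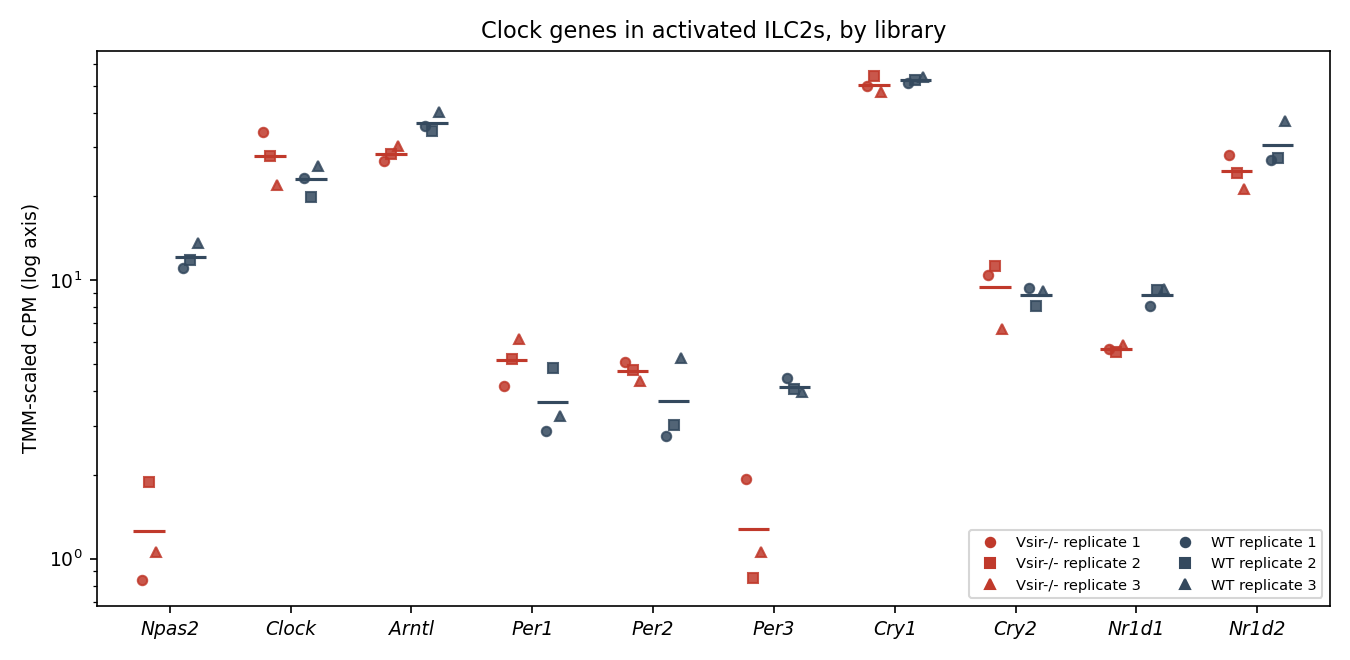
TMM-scaled CPM (log axis) of the 10 clock genes in each library, Vsir-/- in red and WT in dark blue, with a symbol for each replicate and a bar at the mean of 3. The genotypes are fully apart for Npas2, Arntl, Per3 and Nr1d1, with Vsir-/- below WT in each, and overlap for the other 6 genes.

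Among the activators, Npas2 stood apart. It lies on chromosome 1 (39193731 to 39363236, plus strand, GRCm38) and encodes a partner of BMAL1 that can take the place of CLOCK. It measured 0.835, 1.88 and 1.06 CPM in Vsir-/- ILC2s and 11.1, 11.8 and 13.6 CPM in WT ILC2s. Every Vsir-/- library was below every WT library. The log2 fold change was -3.26 ± 0.25 (SE, n = 3 each), a 9.59-fold lower level that rested on 61 reads in the 3 Vsir-/- libraries and 750 reads in the 3 WT libraries. Ordered by log2 fold change from the most negative, Npas2 was number 36 of the 13166 tested genes.

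Clock, on chromosome 5 (76209868 to 76304792, minus strand), encodes the usual partner of BMAL1. Its 34.2, 27.8 and 22.0 CPM in Vsir-/- ILC2s overlapped the 23.3, 19.9 and 25.8 CPM in WT ILC2s. The log2 fold change of Clock was 0.29 ± 0.17 (SE), and ran from 0.12 to 0.45 when 1 library at a time was left out. Arntl, on chromosome 7 (113207465 to 113314126, plus strand), encodes BMAL1 itself, the partner that both share. It had 26.7, 28.5 and 30.2 CPM in Vsir-/- ILC2s and 35.9, 34.3 and 40.0 CPM in WT ILC2s, and the libraries did not overlap. Its log2 fold change was -0.37 ± 0.11 (SE). Arntl was not among the 4 genes counted above when Vsir-/- replicate 1, Vsir-/- replicate 2, WT replicate 1 or WT replicate 3 was left out, with log2 fold changes of -0.32, -0.35, -0.38 and -0.30.

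The Per genes encode the repressors that enter the nucleus with the CRY proteins, and they did not move together. Per3, on chromosome 4 (151003652 to 151044665, minus strand), had 1.93, 0.850 and 1.06 CPM in Vsir-/- ILC2s and 4.44, 4.05 and 3.96 CPM in WT ILC2s. Every Vsir-/- library was again below every WT library. The log2 fold change was -1.70 ± 0.29 (SE), a 3.26-fold lower level, from 61 reads in Vsir-/- and 256 reads in WT libraries. Per1, which responds to CREB and to glucocorticoids as well as to the clock, was at 4.17, 5.22 and 6.16 CPM in Vsir-/- ILC2s and 2.88, 4.85 and 3.26 CPM in WT ILC2s. Per2 was at 5.07, 4.74 and 4.35 CPM in Vsir-/- ILC2s and 2.75, 3.01 and 5.24 CPM in WT ILC2s. A single WT library stood in the way of a gap between the genotypes, replicate 2 inside the Vsir-/- range for Per1 and replicate 3 above every Vsir-/- library for Per2. The log2 fold changes were 0.48 ± 0.24 (SE) for Per1 and 0.38 ± 0.25 (SE) for Per2. With 1 library at a time left out, that of Per1 ran from 0.33 to 0.76 and that of Per2 from 0.22 to 0.70. The highest values were those without WT replicate 2 for Per1 and without WT replicate 3 for Per2.

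The Cry genes encode the main repressors of the CLOCK and BMAL1 pair, and their libraries overlapped. Cry1 had 49.6, 54.1 and 47.5 CPM in Vsir-/- ILC2s and 51.1, 52.3 and 53.8 CPM in WT ILC2s, a log2 fold change of -0.05 ± 0.09 (SE). Cry2 had 10.5, 11.2 and 6.66 CPM in Vsir-/- ILC2s and 9.38, 8.06 and 9.13 CPM in WT ILC2s, a log2 fold change of 0.10 ± 0.19 (SE). The 2 highest and the lowest Cry2 values were all Vsir-/- libraries, so the spread within that genotype exceeded the difference. Exons of Cry2 share 295 bases with D930015M05Rik on the opposite strand, and the strand setting of the read counting is not given in the sources used here.

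The genes of the REV-ERB repressors were both lower in the mean. Nr1d1, on chromosome 11 (98767932 to 98775333, minus strand), had 5.65, 5.53 and 5.85 CPM in Vsir-/- ILC2s and 8.07, 9.21 and 9.31 CPM in WT ILC2s. The libraries did not overlap, and the log2 fold change was -0.65 ± 0.15 (SE). Nr1d2, on chromosome 14 (18204054 to 18239127, minus strand), had 28.2, 24.3 and 21.2 CPM in Vsir-/- ILC2s and 27.0, 27.4 and 37.2 CPM in WT ILC2s, a log2 fold change of -0.31 ± 0.16 (SE) with 1 Vsir-/- library inside the WT range. Exons of Nr1d1 share 263 bases with the 3′ end of Thra, a thyroid hormone receptor gene on the other strand. The read estimates of the pair were fractional in 3 libraries but added up to whole reads there, for example 93.855 for Nr1d1 and 65.145 for Thra, together 159, in Vsir-/- replicate 3, so a share of reads was divided between the genes. Thra went the other way, with 4.56, 4.68 and 4.04 CPM in Vsir-/- ILC2s and 2.88, 3.84 and 2.39 CPM in WT ILC2s (log2 fold change 0.52 ± 0.22 SE, adjusted p = 0.0860 by edgeR).

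**Figure D2:**
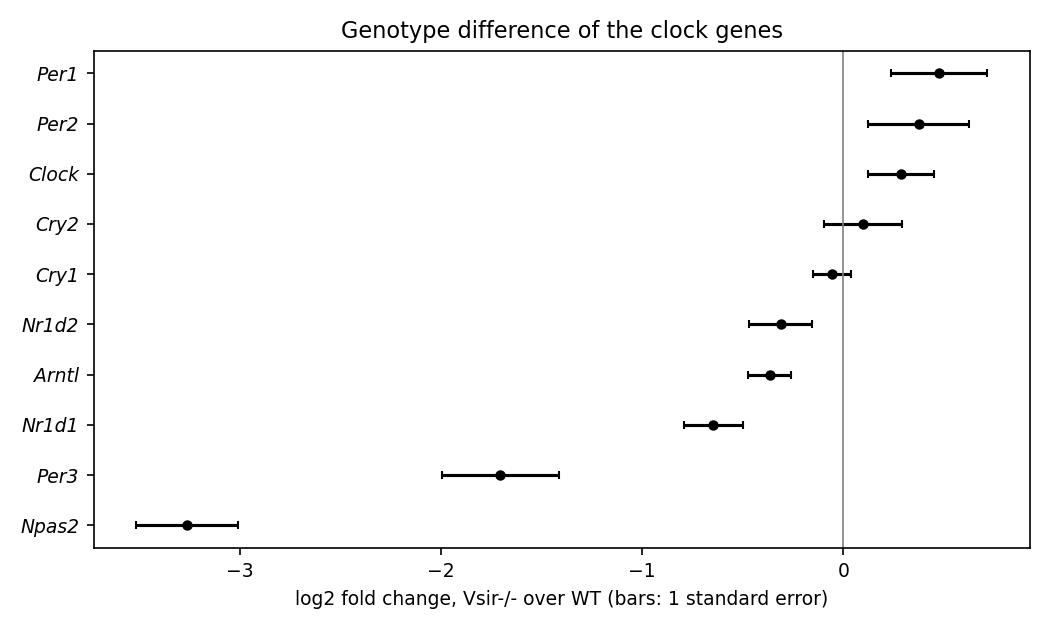
The log2 fold change of each clock gene, Vsir-/- over WT, from the edgeR fit, with bars of 1 standard error (n = 3 each) and genes in order of their value. Npas2 at -3.26 and Per3 at -1.70 lie far to the left of the remaining 8, which run between -0.65 and 0.48.

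Divided by exon length, so that genes can be set side by side, Cry1 was the most abundant clock transcript in both genotypes, at 15.1 ± 1.01 CPM per kb in Vsir-/- ILC2s and 15.7 ± 0.397 CPM per kb in WT ILC2s (SD, n = 3 each). Nr1d2 came next (4.55 ± 0.652 and 5.64 ± 1.08 CPM per kb) and then Arntl (3.79 ± 0.234 and 4.88 ± 0.395 CPM per kb), and the libraries of these neighbours overlapped in both genotypes. The order below them differed. In Vsir-/- ILC2s it ran Clock at 2.04, Nr1d1 at 1.84, Cry2 at 1.496, Per1 at 0.921, Per2 at 0.806, Npas2 at 0.263 and Per3 at 0.133 CPM per kb. In WT ILC2s it ran Nr1d1 at 2.88, Npas2 at 2.53, Clock at 1.68, Cry2 at 1.40, Per1 at 0.650, Per2 at 0.626 and Per3 at 0.432 CPM per kb. Among these, neighbours whose libraries overlapped were Clock and Nr1d1, Cry2 and Per1, Per1 and Per2, and Npas2 and Per3 in Vsir-/- ILC2s, and Nr1d1 and Npas2, Clock and Cry2, and Per1 and Per2 in WT ILC2s. Per kb, Npas2 therefore stood above Clock in every WT library and below it in every Vsir-/- library. The order in WT rests on the exon lengths used, 13.7 kb for Clock and 4.79 kb for Npas2, each the union of all annotated exons. In CPM not divided by length, Clock was above Npas2 in every library, at 19.9 to 25.8 against 11.1 to 13.6 CPM in WT ILC2s. Among all tested genes with a known length, the level of Npas2 per kb was at percentile 6.42 in Vsir-/- ILC2s and 34.2 in WT ILC2s.

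Within families, the make-up of the partners of BMAL1 was the one that differed most. Npas2 made up 6.54%, 16.2% and 12.1% of the summed Npas2 and Clock level per kb in Vsir-/- ILC2s and 57.6%, 62.8% and 60.1% in WT ILC2s. The sum was 2.30 ± 0.431 CPM per kb in Vsir-/- ILC2s and 4.21 ± 0.435 CPM per kb in WT ILC2s (SD, n = 3 each). Per3 made up 11.1%, 4.85% and 5.65% of the Per family in Vsir-/- ILC2s and 32.0%, 23.5% and 21.8% in WT ILC2s, while the summed Per level, 1.86 ± 0.0759 CPM per kb in Vsir-/- and 1.71 ± 0.233 CPM per kb in WT ILC2s, differed by less than the WT spread. Cry1 made up 91.1% ± 1.77 of the Cry family in Vsir-/- ILC2s and 91.8% ± 0.653 in WT ILC2s. Nr1d1 made up 29.1% ± 3.34 of the REV-ERB genes in Vsir-/- ILC2s and 34.1% ± 3.33 in WT ILC2s, with overlapping libraries. These are transcript shares that depend on the exon lengths used, and they follow from the levels on which the genes were selected.

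**Figure D3:**
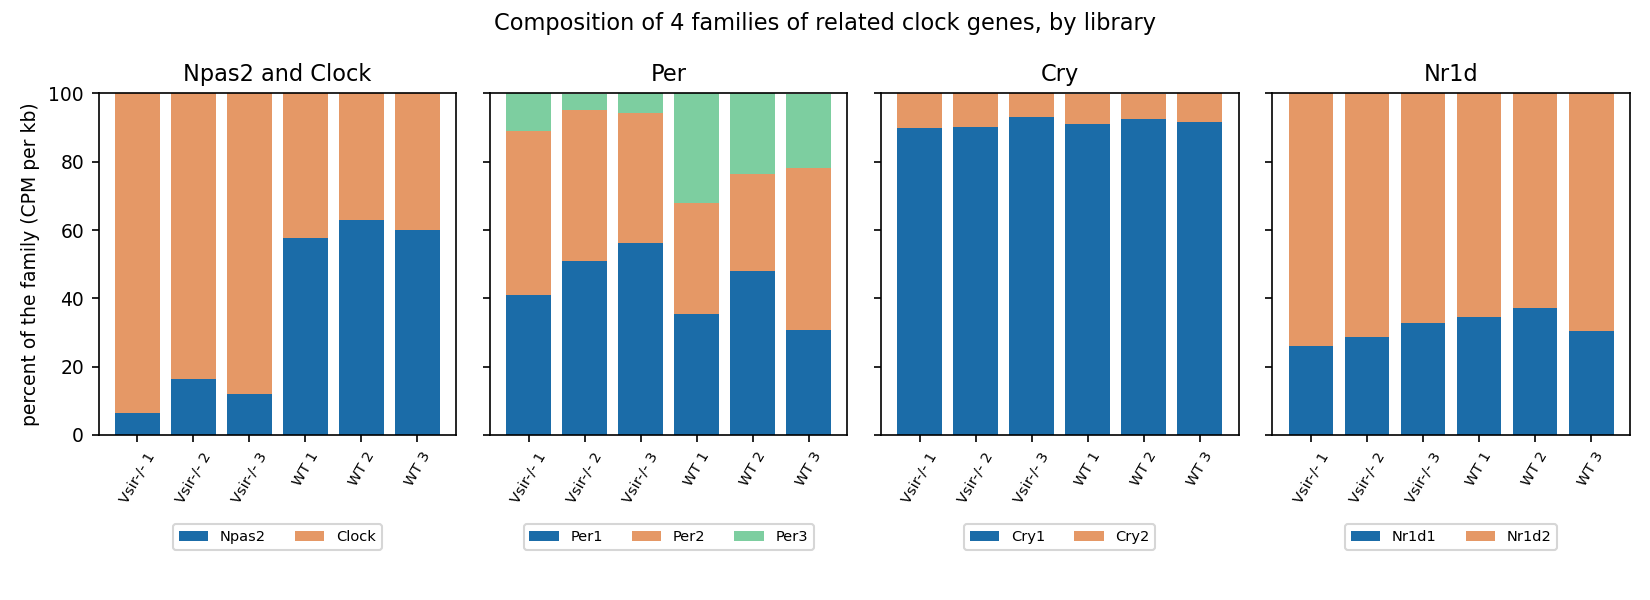
Percent of the summed level per kb of exon held by each gene in 4 families of related clock genes, with a stacked bar for each library, Vsir-/- on the left of each panel and WT on the right. Npas2 takes 6.54% to 16.2% of its family in Vsir-/- and 57.6% to 62.8% in WT libraries, Per3 takes less of the Per bars in Vsir-/- than in WT libraries, and the Cry bars look alike.

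Genes that act with the clock but were not among the 10 were tested in the same fit. Of 71 such genes, 69 were analysed here (Bhlhe41 and Rorb were not) and 68 tested. In Vsir-/- ILC2s 13 rose, 12 fell and 43 did not pass, which is 36.8% past the threshold beside 38.9% of all genes. The median log2 fold change was 0.12 over these genes and -0.01 over all tested genes.

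Of 10 tested partners in the transcriptional loop, 2 rose, 2 fell and 6 did not pass. That is 40% past the threshold, beside 38.9% of all genes. Ciart, which encodes a repressor of the CLOCK and BMAL1 pair and whose promoter window holds the 3 E-boxes shown above, rose to 10.7, 9.78 and 12.004 CPM in Vsir-/- ILC2s, against 4.94, 6.09 and 5.24 CPM in WT ILC2s (log2 fold change 0.99 ± 0.16 SE, adjusted p = 0.000621 by edgeR). Cipc, which encodes another inhibitor of CLOCK, rose to 45.2, 37.5 and 37.2 CPM in Vsir-/- ILC2s, against 20.7, 22.2 and 25.5 CPM in WT ILC2s (0.81 ± 0.13 SE, adjusted p = 0.000568). Both genes of repressors were thus higher in every Vsir-/- library. Rora, which encodes the activator that opposes the REV-ERBs and is needed for ILC2s to develop, fell to 154, 150 and 137 CPM in Vsir-/- ILC2s, against 258, 245 and 243 CPM in WT ILC2s (-0.76 ± 0.08 SE, adjusted p = 5.79e-05). Timeless, a replication fork gene also tied to the clock, fell to 43.4, 48.8 and 44.2 CPM, against 76.1, 74.2 and 79.2 CPM in WT ILC2s (-0.75 ± 0.09 SE, adjusted p = 0.000126). The E-box repressor gene Bhlhe40 had 194 ± 18.5 CPM in Vsir-/- and 182 ± 6.18 CPM in WT ILC2s (SD, n = 3 each, adjusted p = 0.433 by edgeR). The BMAL1 relative Arntl2 was low in both genotypes and did not pass (1.70 ± 0.262 CPM in Vsir-/- and 1.29 ± 0.205 CPM in WT ILC2s, SD, n = 3 each, adjusted p = 0.286 by edgeR).

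The D-box factors split. Nfil3, which encodes the repressor of D-box genes and is required for innate lymphoid cells to form, rose to 162, 179 and 193 CPM in Vsir-/- ILC2s, against 82.4, 77.9 and 83.7 CPM in WT ILC2s (log2 fold change 1.13 ± 0.09 SE, adjusted p = 7.84e-06 by edgeR). Hlf, which encodes an activator of the same element, fell to 103, 103 and 94.0 CPM in Vsir-/- ILC2s, against 173, 179 and 214 CPM in WT ILC2s (-0.91 ± 0.10 SE, adjusted p = 6.30e-05). The other activators did not pass. Tef had 19.1, 21.0 and 16.2 CPM in Vsir-/- ILC2s and 24.6, 23.1 and 22.1 CPM in WT ILC2s (-0.31 ± 0.13 SE, adjusted p = 0.0776), and Dbp was low in both, at 1.73 ± 0.345 CPM in Vsir-/- and 2.15 ± 0.144 CPM in WT ILC2s (adjusted p = 0.360). Per3, whose window holds 2 D-boxes, was the only one of the 9 clock genes with an entry that carried this element. Any bearing of these D-boxes or of the D-box factors on the Per3 level was not tested.

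**Figure D4:**
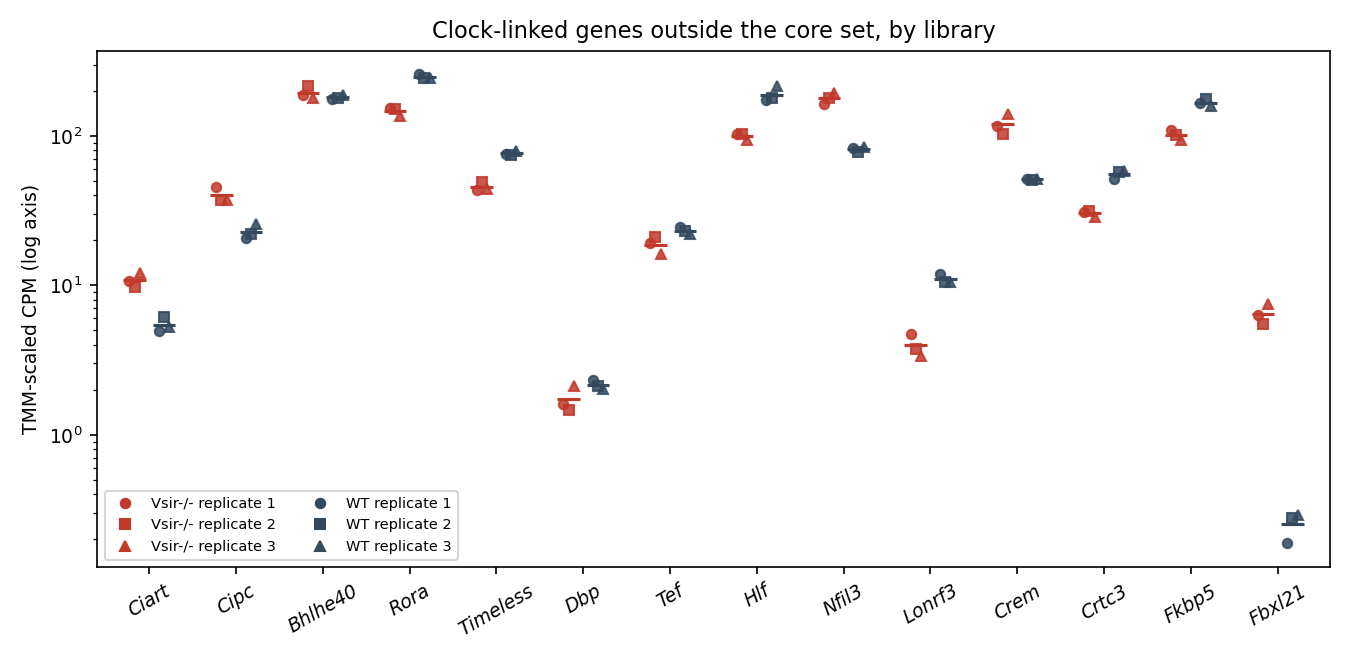
TMM-scaled CPM (log axis) of 14 genes linked to the clock, in each library, Vsir-/- in red on the left and WT in dark blue on the right of each gene, with bars at the means. Ciart, Cipc, Nfil3, Crem and Fbxl21 lie higher in all Vsir-/- libraries. Rora, Timeless, Tef, Hlf, Lonrf3, Crtc3 and Fkbp5 lie lower in all of them, though Tef did not pass the threshold. Bhlhe40 and Dbp overlap. The 14 genes are a selection. Of all 68 tested clock-linked genes, 25 passed (36.8%, beside 38.9% of all tested genes). For 33 of the 68 the libraries of the genotypes did not overlap, which 49.4% of all tested genes shared.

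Among enzymes that modify clock proteins, the ubiquitin group had 4 of 12 tested genes that rose and 8 that did not pass. The share past the threshold was 33.3%, beside 38.9% of all genes. Fbxl21, which encodes an F-box protein that binds CRY proteins, rose to 6.36, 5.53 and 7.46 CPM in Vsir-/- ILC2s, against 0.188, 0.277 and 0.291 CPM in WT ILC2s (log2 fold change 4.65 ± 0.29 SE, adjusted p = 1.13e-06 by edgeR), the WT values resting on 3, 8 and 5 reads. Huwe1, for a ligase of the REV-ERB protein, had 195 ± 24.1 CPM in Vsir-/- ILC2s and 129 ± 14.6 CPM in WT ILC2s (SD, n = 3 each; 0.60 ± 0.12 SE, adjusted p = 0.00222 by edgeR). Ube3a, for a ligase that binds BMAL1, had 137 ± 7.92 CPM in Vsir-/- ILC2s and 96.2 ± 3.90 CPM in WT ILC2s (SD, n = 3 each; 0.51 ± 0.09 SE, adjusted p = 0.000954 by edgeR). Siah2 rose least (0.31 ± 0.09 SE, adjusted p = 0.0168), and did not pass without Vsir-/- replicate 1 (adjusted p = 0.0705) or WT replicate 1 (adjusted p = 0.0751).

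Of 14 tested kinases and phosphatases of clock proteins, 1 rose, 1 fell and 12 did not pass (14.3% past the threshold, beside 38.9% of all genes). Csnk1d and Csnk1e, the casein kinase genes that set the pace of PER turnover, had log2 fold changes of 0.09 ± 0.08 (SE) and 0.01 ± 0.11 (SE), with adjusted p of 0.443 and 0.943 by edgeR. The phosphatase gene Ppp5c rose (0.29 ± 0.09 SE, adjusted p = 0.0200) and Ppp1ca fell (-0.34 ± 0.09 SE, adjusted p = 0.0149). Neither held throughout, since Ppp5c missed the threshold without WT replicate 1 (adjusted p = 0.0577) or WT replicate 3 (0.0601), and Ppp1ca without Vsir-/- replicate 1 (0.0524), WT replicate 1 (0.0577) or WT replicate 2 (0.0629). Csnk2a1 (0.24 ± 0.14 SE, adjusted p = 0.202) and Prkaa1 (0.22 ± 0.13 SE, adjusted p = 0.202) did not pass with all libraries, but Csnk2a1 did without WT replicate 2 (0.0333) and Prkaa1 without WT replicate 3 (0.0447).

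Of 12 tested chromatin coregulators, 2 rose and 3 fell (41.7% past the threshold, beside 38.9% of all genes). Ncor1, for the corepressor that REV-ERB proteins recruit, fell to 162 ± 14.5 CPM in Vsir-/- ILC2s, against 215 ± 7.51 CPM in WT ILC2s (SD, n = 3 each; log2 fold change -0.41 ± 0.09 SE, adjusted p = 0.00473 by edgeR). Ezh2, for a histone methyltransferase, fell (-0.37 ± 0.08 SE, adjusted p = 0.00436), as did the acetyltransferase gene Kat2b (-0.45 ± 0.12 SE, adjusted p = 0.0146), the last not without Vsir-/- replicate 1 (0.0518) or Vsir-/- replicate 2 (0.0663).

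Of 12 tested genes of the CREB and glucocorticoid inputs to Per transcription, 2 rose and 3 fell. That is 41.7% past the threshold, beside 38.9% of all genes. Crem, which encodes cAMP-responsive activators and repressors, rose to 117, 103 and 140 CPM in Vsir-/- ILC2s, against 51.6, 50.5 and 51.0 CPM in WT ILC2s (log2 fold change 1.23 ± 0.12 SE, adjusted p = 2.07e-05 by edgeR). Crtc3, for a coactivator of CREB, fell to 31.0, 31.3 and 28.8 CPM, against 51.6, 57.0 and 58.3 CPM in WT ILC2s (-0.87 ± 0.10 SE, adjusted p = 7.03e-05). Fkbp5, a co-chaperone of the glucocorticoid receptor that the receptor itself induces, fell to 102 ± 7.90 CPM, against 167 ± 8.79 CPM in WT ILC2s (SD, n = 3 each; -0.71 ± 0.09 SE, adjusted p = 0.000164 by edgeR). Creb1 fell (-0.55 ± 0.16 SE, adjusted p = 0.0165), though not without Vsir-/- replicate 3 (adjusted p = 0.0643).

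Of 11 tested genes known for a daily rhythm in many tissues, 3 rose, 3 fell and 5 did not pass. The share past the threshold was 54.5%, beside 38.9% of all genes. This list shares Ciart, Nfil3, Hlf, Tef, Dbp, Usp2 and Tsc22d3 with the groups above. Lonrf3, a RING finger gene, was the one that changed most, falling to 4.75, 3.77 and 3.36 CPM in Vsir-/- ILC2s, against 11.95, 10.5 and 10.5 CPM in WT ILC2s (log2 fold change -1.47 ± 0.17 SE, adjusted p = 8.59e-05 by edgeR).

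The genes whose log2 CPM followed Npas2 most closely over the 6 libraries included Iffo1, Acap3, Incenp and Sh3bp1, with Pearson r from 0.9986 to 0.9999 among 8542 genes searched. These 4 were lower in the Vsir-/- mean, by log2 fold changes between -0.95 and -0.65. For Per1, the clock gene with the most positive log2 fold change, they were Agpat5, Ube2s, U2af2, Grb2 and Alg1 (r from 0.972 to 0.995 among 8543 genes), with log2 fold changes between 0.05 and 0.27. The 6 points share their libraries and, for Npas2, fall into the 2 genotypes, so the coefficients describe likeness of pattern only.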

How the data were processed

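RNA of sorted, IL-33-activated lung ILC2s was sequenced on an Illumina NextSeq instrument. The authors deposited 1 table of estimated counts per gene for 3 Vsir-/- and 3 WT libraries, not normalised; per the labels' processing notes STAR 2.7.8, Partek 10.0 and mm10 were used. Annotation and strand setting are not given in the sources used here. Between 60.8% and 69.5% of the values per library were whole to within 0.01; others held fractions. The estimated counts were rounded for testing, whereas the plan had named counts.

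Genes were filtered with filterByExpr (minimum count 10, minimum total 15), scaled by TMM (factors 0.989 to 1.02) and fitted with the quasi-likelihood test of edgeR 4.0.16 in R 4.3.3 over all 6 libraries, with no other term. P-values were adjusted by Benjamini-Hochberg over all 13166 tested genes, with a threshold of 0.05. CPM use the TMM-scaled library sizes, and levels per kb the union of exons in GENCODE vM21 (lengths found for 97.9% of tested genes). Named genes were the 10 clock genes, 15 partners set by name, up to 4 genes with the smallest p per list, the 5 genes most like Npas2 and like Per1 (Pearson r of log2(CPM + 0.5), genes of at least 10 CPM), Vsir, and genes overlapping a clock gene. Some of the genes this rule names are not reported here. The clock genes, the lists and the rule were chosen with earlier results of these data known.

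In data simulated for this comparison (13166 genes, 200 changed) edgeR recovered 90% of genes changed 3-fold and 43% of those changed 1.5-fold, and 11 of 144 calls were false. The simulated libraries were independent, and far fewer genes were changed than the 5124 that passed in the data. These shares may therefore not hold for the real libraries. Alternatives were DESeq2 1.42.0, RLE scaling, limma 3.58.1 voom, other filters, thinning, other thresholds, a replicate block, other use of libraries with shared label numbers, and leaving out each library. Replicate numbers were not taken as pairs: deviations of same-numbered libraries correlated at r = -0.0966, 0.197 and -0.477. Replicates 1 and 2 of each genotype share a label number and were kept as separate libraries. They differed by more than sampling noise (chi-square per degree of freedom 11.3 in Vsir-/- and 9.71 in WT). By this value they were still the closest pair of their genotype, the other pairs being at 18.6 and 19.7 in Vsir-/- and 11.3 and 25.2 in WT. It cannot tell separate mice from repeated preparations of the same cells. Intervals and errors cover these libraries only.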

Additional observations from a re-analysis of the deposited data

How the results depend on the processing

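Over all tested genes, 5124 passed with the full set of libraries, 3327 passed an adjusted p of 0.01 and 2957 a 1.5-fold change with the threshold of 0.05. With replicates 1 and 3 only, 3240 genes and 2 clock genes passed, Arntl and Nr1d1 (adjusted p = 0.0670 by edgeR) dropping out. With replicates 2 and 3 only, 3216 genes and 16 clock-linked genes passed. With WT replicate 1 alone against the 3 Vsir-/- libraries, where the lone library is assumed to vary like the others, 2480 genes, 2 clock genes and 15 clock-linked genes passed. Of the 25 clock-linked genes, 13 also changed by at least 1.5-fold. With replicates 1 and 2 summed within each genotype, 3708 genes, 3 clock genes and 17 clock-linked genes passed, Arntl dropping out. Fewer libraries entered most of these fits. With a replicate block, 4094 genes, 3 clock genes and 21 clock-linked genes passed, Arntl being the clock gene that dropped out. Leaving out 1 library at a time gave 3922 to 4950 genes, 3 to 5 clock genes and 19 to 27 clock-linked genes. In these fits some clock genes passed as higher in Vsir-/- ILC2s that had not passed with all libraries. They were Clock without Vsir-/- replicate 3 (adjusted p = 0.0432 by edgeR), Per1 without WT replicate 2 (0.0378) and Per2 without WT replicate 3 (0.0276). Per2 also passed by limma voom. Over the alternatives the log2 fold changes ran between -3.69 and -3.04 for Npas2 and between -2.12 and -1.46 for Per3, which was below the 5 CPM filter; these are the values that chose the genes and are no independent support. Cry1 changed sign in 1 and Cry2 in 2 of 18 alternatives. Depth limits Npas2 and Per3 most, with 61 reads each in the Vsir-/- libraries.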
